A study of Mus musculus with 11 samples.

Results

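The genes described here encode the subunits of the proteasome and of its activators. They were taken by symbol, as every gene whose name starts with Psma, Psmb, Psmc, Psmd or Psme followed by a digit, without the entries marked as pseudogenes. This gave 45 of the 45810 genes listed in each library: the 5 subunits known to be induced by interferon (Psmb8, Psmb9, Psmb10, Psme1 and Psme2) and 40 others. Of the 45 members, 44 passed the filter on low values, meaning 1 FPKM or more in 2 or more of the 11 libraries. Psmb11, a catalytic subunit of thymus, did not pass and was listed at 0 in 10 libraries and at 0.134 FPKM in the other. The symbol rule also took in Psmc3ip, a cofactor of meiotic recombination that is no proteasome subunit, and Psme2b, a gene related to Psme2. FPKM counts fragments for each kilobase of a transcript and scales them by library, so levels of different genes can be compared per length.

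The libraries came from adult C57BL/6 mice in which L10a, a ribosomal protein, was fused to eGFP under the VE-cadherin promoter, so that ribosomes of endothelial cells could be pulled down with their mRNA (translating ribosome affinity purification, TRAP). Mice were Eltd1-/- (KO) or wild type (WT), and GL261, a mouse glioma line, had been injected into the brain of those that gave tumour tissue. Eltd1, now called Adgrl4, encodes a receptor of the adhesion GPCR family that endothelial cells express. The groups were KO tumour (n = 2 mouse samples), WT tumour (n = 3), KO healthy brain (n = 3) and WT healthy brain (n = 3), where the protocol names 3 mice for each.

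The proteasome is a barrel of 4 stacked rings, capped at its ends, that cuts proteins tagged with ubiquitin into peptides. Alpha subunits (Psma genes) form the outer rings and the gate, beta subunits (Psmb genes) form the inner rings, and only Psmb5, Psmb6 and Psmb7 among the constitutive beta subunits are catalytic. Interferon-gamma induces Psmb8, Psmb9 and Psmb10, whose products take the places of Psmb5, Psmb6 and Psmb7 in newly built particles, called immunoproteasomes. Psme1 and Psme2 encode the activator that opens the gate, and the peptides made are loaded on MHC class I molecules. The regulatory cap holds ATPases (Psmc genes) that unfold the substrate, and further subunits (most Psmd genes) that receive it and remove its ubiquitin.

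Facts of the libraries bear on every comparison. Adgrl4 was listed at 11.5 and 5.82 FPKM in KO tumours, against 44.99, 192 and 27.4 FPKM in WT tumours, and at 21.6, 23.6 and 22.2 FPKM in KO brains, against 166, 82.7 and 153 FPKM in WT brains. It was lower in every KO library than in every WT library of the same tissue. The 10 endothelial markers summed to 374.5 to 474 FPKM in KO tumours and 211 to 455 FPKM in WT tumours, against 1080 to 1515 FPKM in KO brains and 999 to 1087 FPKM in WT brains. The 10 neuron markers, which endothelial cells lack, were also present, at 925 to 1483 FPKM in KO tumours and 256 to 3026 FPKM in WT tumours, against 4842 to 6174 FPKM in KO brains and 5428 to 6651 FPKM in WT brains. WT tumour 2 stood apart, with 42.7% of the 15604 tested genes at 0, and WT tumour 3 held the highest neuron sum among the tumours. In such bulk material, fewer cells of a type and less RNA per cell cannot be told apart.

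In tumour, the 3 interferon-induced catalytic subunits rose in both genotypes, while their constitutive counterparts Psmb5, Psmb6 and Psmb7 passed the test in neither; of these, Psmb6 passed in KO mice with library weights, which count noisier libraries less (adjusted p = 0.0323). Psmb8 showed the largest change of the 5 induced members in both genotypes, with a mean FPKM 9.42 times that of brain in KO mice and 4.70 times that of brain in WT mice. The WT call of Psmb9 was lost in 7 of the 11 fits that left out 1 library and in 3 of 10 other settings. The KO call of Psmb10 was lost in 2 of those 11 fits. Psme1 passed in KO mice and not in WT mice, and Psme2 passed in neither, and these calls turned with the scaling, the weights or the libraries fitted, as given for each gene. No member passed the test between genotypes after adjustment, which does not show that none changed.

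**Figure D1:**
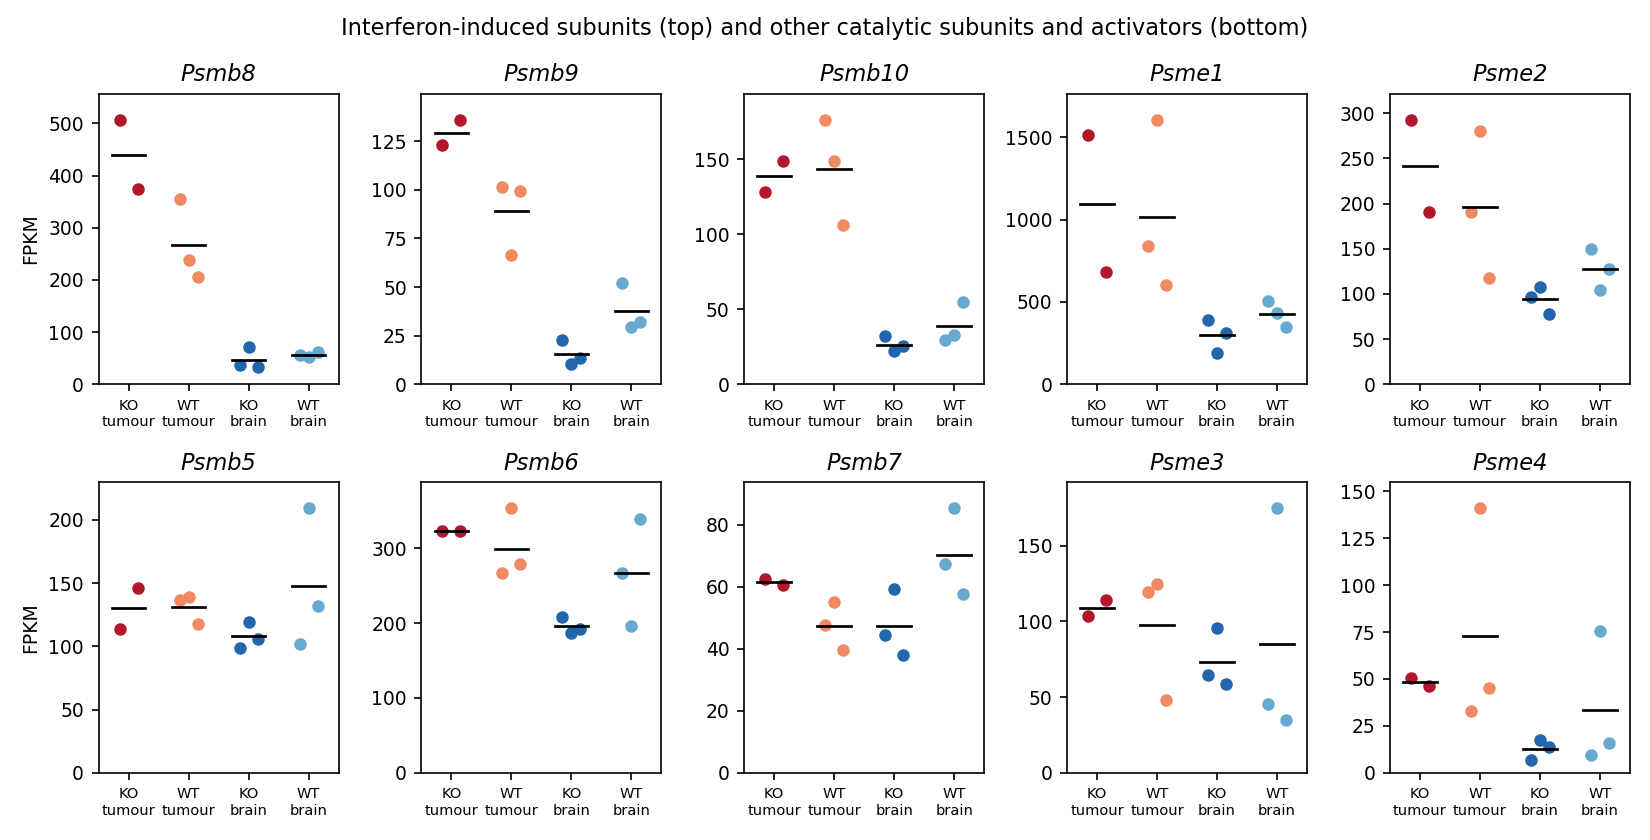
FPKM (vertical axis, linear from 0) of the 5 interferon-induced members in the upper row and of Psmb5, Psmb6, Psmb7, Psme3 and Psme4 in the lower row, by group; each point is 1 library and the black line is the group mean. Every tumour library lies above every brain library for Psmb8, Psmb9, Psmb10 and Psme1, while the tumour and brain points of Psmb5 lie together.

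Psmb8 encodes the immunoproteasome subunit that replaces Psmb5 and cuts after hydrophobic residues. Its level was 507 and 374 FPKM in KO tumours and 356, 238 and 206 FPKM in WT tumours, against 36.4, 71.2 and 32.7 FPKM in KO brains and 56.1, 52.4 and 61.5 FPKM in WT brains. The lowest tumour library, WT tumour 3, was above the highest brain library, KO brain 2. On the log2(FPKM + 1) scale used for all tests, the tumour minus brain change was 3.28 (SE 0.39, limma adjusted p = 0.00111) in KO mice and 2.18 (SE 0.35, adjusted p = 0.00238) in WT mice. Both calls held when any single library was left out. Among the 45 members, Psmb8 ranked 2nd by FPKM in both KO tumours and between the 2nd and the 11th in WT tumours, against the 23rd to the 34th in KO brains and the 24th to the 27th in WT brains.

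Psmb9 takes the place of Psmb6, and its gene lies head to head with Tap1, which encodes a subunit of the peptide transporter. It stood at 123 and 136 FPKM in KO tumours and 102, 66.6 and 99.2 FPKM in WT tumours, against 22.7, 10.2 and 13.4 FPKM in KO brains and 52.1, 29.3 and 31.8 FPKM in WT brains. All tumour libraries were again above all brain libraries, by the narrowest margin between WT tumour 2 and WT brain 1. The tumour minus brain change was 3.06 (SE 0.43, adjusted p = 0.00218) in KO mice and 1.24 (SE 0.39, adjusted p = 0.0438) in WT mice. The WT call was lost in 7 of the 11 fits that left out 1 library, with an adjusted p of up to 0.118; these left out KO tumour 1 or 2, WT tumour 1 or 3, WT brain 2 or 3, or KO brain 3. It was also lost in 3 of 10 other settings (a pseudocount of 0.1, only the compared groups fitted, and WT tumours 2 and 3 both left out), with an adjusted p of up to 0.0969.

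Psmb10 replaces Psmb7, the subunit that cuts after basic residues. The KO tumours had 128 and 149 FPKM and the WT tumours 176, 149 and 106 FPKM, against 32.3, 21.9 and 25.4 FPKM in KO brains and 29.4, 32.9 and 54.6 FPKM in WT brains. Tumour and brain did not overlap in either genotype, while the genotypes overlapped within each tissue. The tumour minus brain change was 2.36 (SE 0.39, adjusted p = 0.00441) in KO mice and 1.88 (SE 0.35, adjusted p = 0.00483) in WT mice. Leaving out KO tumour 1 or KO tumour 2 ended the KO call, with an adjusted p of up to 0.0644.

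Psme1 was the highest member in all 5 tumour libraries and in 5 of the 6 brain libraries. It reached 1512 and 684 FPKM in KO tumours and 838, 1606 and 602 FPKM in WT tumours, against 388, 191 and 312 FPKM in KO brains and 507, 430.4 and 350.1 FPKM in WT brains. The lowest tumour library, WT tumour 3, was above the highest brain library, WT brain 1. The change was 1.83 (SE 0.47, adjusted p = 0.0395) in KO mice and 1.13 (SE 0.42, adjusted p = 0.0812) in WT mice. The KO call was lost in 9 of the 11 fits that left out 1 library, all but those without WT tumour 2 or WT tumour 3, with an adjusted p of up to 0.391. It was also lost with a pseudocount of 0.1, with no filter on low values and with only the compared groups fitted (adjusted p up to 0.0672). The WT change passed without WT tumour 3 (adjusted p = 0.0323), and with upper quartile scaling, quantile normalization or library weights (adjusted p down to 0.0248).

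Psme2, the partner of Psme1 in the same activator ring, stood at 293 and 191 FPKM in KO tumours and 190.2, 280.3 and 117 FPKM in WT tumours, against 96.5, 108 and 77.3 FPKM in KO brains and 149.8, 104 and 127 FPKM in WT brains. The groups overlapped in WT mice and not in KO mice. The change of 1.34 (SE 0.39, adjusted p = 0.0617) in KO mice and of 0.55 (SE 0.35, adjusted p = 0.298) in WT mice did not pass. In KO mice it passed without WT tumour 2 or without WT tumour 3, with an adjusted p down to 0.0247. It also passed in KO mice in 5 of 10 other settings, with an adjusted p down to 0.00455: upper quartile scaling, quantile normalization, library weights, only the compared groups fitted, and WT tumours 2 and 3 both left out.

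The promoter windows of 5 members are shown because their genes are the pairs and partners compared here. The sequences are RefSeq's, on GRCm38.p6, from 250 bases before the annotated start to 50 bases after it, and were found for 38 of the 45 members, the 5 induced ones included. Capitals mark the motif match named for each. In Psmb8 (chr17:34197945-34198244, plus strand) it is a GAS element (interferon-gamma activated site), searched as TTCNNNGAA, and in Psme1 (chr14:55578244-55578543, plus strand) an interferon regulatory factor site, searched as GAAA and GAAA with 2 bases between them and read here on the other strand. In Psmb9 (chr17:34187281-34187580, minus strand) it is a CCAAT box on the other strand, and in Psmb5 (chr14:54617946-54618245, minus strand) and Psmb6 (chr11:70525107-70525406, plus strand) an antioxidant response element, searched as TGACNNNGC.
Psmb8: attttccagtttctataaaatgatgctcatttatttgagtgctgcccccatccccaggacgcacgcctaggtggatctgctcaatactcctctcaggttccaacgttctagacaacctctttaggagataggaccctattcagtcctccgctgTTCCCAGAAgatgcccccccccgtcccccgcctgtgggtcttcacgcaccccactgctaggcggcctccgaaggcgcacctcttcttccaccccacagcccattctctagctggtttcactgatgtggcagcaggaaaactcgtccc
Psme1: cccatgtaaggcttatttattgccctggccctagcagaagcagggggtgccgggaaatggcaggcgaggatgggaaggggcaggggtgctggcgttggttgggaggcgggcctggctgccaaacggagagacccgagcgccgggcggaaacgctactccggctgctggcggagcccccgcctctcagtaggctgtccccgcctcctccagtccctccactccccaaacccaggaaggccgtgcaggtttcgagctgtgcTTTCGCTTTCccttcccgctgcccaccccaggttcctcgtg
Psmb9: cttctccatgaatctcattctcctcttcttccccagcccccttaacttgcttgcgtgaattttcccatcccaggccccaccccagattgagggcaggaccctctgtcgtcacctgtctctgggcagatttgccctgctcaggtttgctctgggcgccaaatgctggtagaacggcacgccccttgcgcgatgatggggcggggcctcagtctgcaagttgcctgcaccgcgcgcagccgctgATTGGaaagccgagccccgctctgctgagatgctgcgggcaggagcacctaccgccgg
Psmb5: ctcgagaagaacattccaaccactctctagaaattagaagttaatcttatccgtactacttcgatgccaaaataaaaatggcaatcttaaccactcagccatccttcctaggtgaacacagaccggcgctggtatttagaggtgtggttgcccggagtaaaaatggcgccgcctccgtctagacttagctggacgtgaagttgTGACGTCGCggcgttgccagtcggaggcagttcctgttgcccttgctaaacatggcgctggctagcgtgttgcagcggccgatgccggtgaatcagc
Psmb6: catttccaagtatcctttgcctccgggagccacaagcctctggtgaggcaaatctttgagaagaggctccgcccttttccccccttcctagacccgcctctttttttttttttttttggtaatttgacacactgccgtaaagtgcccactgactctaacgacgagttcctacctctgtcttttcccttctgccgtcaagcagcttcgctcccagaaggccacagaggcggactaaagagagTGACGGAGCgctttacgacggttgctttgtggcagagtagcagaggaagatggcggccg

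Both strands were searched, and a match is a description of these letters only. The GAS letters occurred in 2 of the 38 member windows, Psmb8 and Psmd2, against 8.3% of all 32851 windows. The interferon regulatory factor letters occurred in 4 of 38 (Psmb3, Psmd4, Psmd9 and Psme1), against 3.44% of all windows, and an NF-kB site (GGG and TTTCC with 2 bases between them) in 0 of 38, against 1.63%. The antioxidant response element, which the factors Nfe2l1 and Nfe2l2 are known to bind, was found in 6 of 38 windows (Psmb5, Psmb6, Psmc6, Psmd9, Psmd12 and Psme4) and in 0 of the 5 induced ones, against 12.4% of all windows. CCAAT boxes were in 15 of 38, against 37.4%. The windows of Psmb10 and Psme2 held none of the 5 motifs. The start sites of Psmb9 (34187330, minus strand) and Tap1 (34187556, plus strand) are 226 bases apart, so their windows share 275 bases. Psmb8 and Tap2 follow within the same stretch of chromosome 17, from 34198195 to 34201454 and from 34204479 to 34216321, and Psme1 and Psme2 are neighbours on chromosome 14, from 55578494 to 55581527 and from 55587440 to 55591101.

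Each induced catalytic subunit competes with 1 constitutive subunit for its place, so the share of the pair's summed FPKM was compared. Psmb8 made up 81.6% and 71.9% of Psmb8 plus Psmb5 in KO tumours and 72.2%, 63.1% and 63.7% in WT tumours, against 26.9%, 37.3% and 23.6% in KO brains and 35.4%, 20.04% and 31.8% in WT brains. The induced subunit was thus the higher of the pair in all tumour libraries and the lower in all brain libraries. The log2 ratio of Psmb8 to Psmb5 was higher in tumour by 3.02 in KO mice and by 2.29 in WT mice, and by 2.66 on average over the genotypes (two-sided exact permutation test within genotypes, p = 0.005, the smallest that its 200 arrangements allow; Benjamini-Hochberg adjusted p = 0.025 over 10 tests). The adjusted p was 0.05 or above in 9 of the 11 permutation tests that left out 1 library, and reached 0.0833. The exceptions were those without WT tumour 2 or WT brain 1. With 1 library less the smallest possible p is larger, so a lost call alone does not show dependence on that library. The difference stayed between 2.46 and 2.85.

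For Psmb10 and Psmb7 the order turned in the same way. Psmb10 held 67.3% and 71.1% of the pair in KO tumours and 78.8%, 73.1% and 72.8% in WT tumours, against 42.1%, 27.0% and 40.1% in KO brains and 30.4%, 27.9% and 48.7% in WT brains. The log2 ratio was higher in tumour by 1.96 in KO mice and by 2.43 in WT mice, with a mean of 2.19 (exact permutation test, p = 0.005, adjusted p = 0.025). Psmb9 stayed the lower of its pair throughout, at 27.6% and 29.6% of Psmb9 plus Psmb6 in KO tumours and 27.6%, 15.9% and 26.3% in WT tumours, against 9.85%, 5.18% and 6.48% in KO brains and 16.3%, 13.0% and 8.59% in WT brains. WT tumour 2 overlapped WT brain 1 in this share. The log2 ratio was higher in tumour by 2.34 in KO mice and by 1.05 in WT mice, with a mean of 1.70 (exact permutation test, p = 0.01, adjusted p = 0.0333). Both pairs lost the call in the same 9 of 11 tests with 1 library left out, with adjusted p up to 0.0833 for Psmb10 to Psmb7 and 0.111 for Psmb9 to Psmb6.

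**Figure D2:**
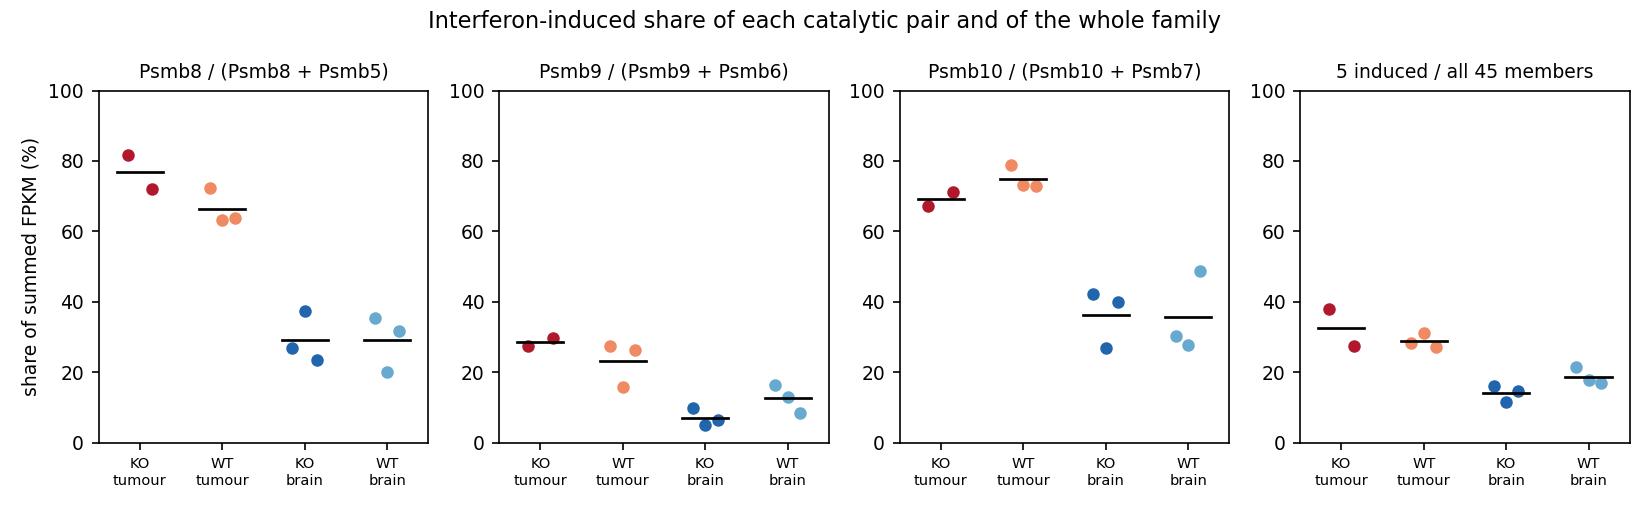
Share of the interferon-induced subunit in the summed FPKM of each catalytic pair, and of the 5 induced members in the summed FPKM of all 45 members (vertical axes in percent, 0 to 100), by group; points are libraries and lines group means. Psmb8 lies above 63% in all tumour libraries and below 38% in all brain libraries, while Psmb9 stays below 30% in every library.

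The activator subunits did not pass this test against Psme3, which forms a different, nuclear activator. The log2 ratio of Psme1 to Psme3 was higher in tumour by 0.96 (exact permutation test, p = 0.13, adjusted p = 0.325), and that of Psme2 to Psme3 by 0.42 (exact permutation test, p = 0.405, adjusted p = 0.579). The 5 induced members together held 37.9% and 27.5% of the FPKM of all members in KO tumours and 28.3%, 31.0% and 27.2% in WT tumours, against 16.2%, 11.5% and 14.8% in KO brains and 21.6%, 17.8% and 16.9% in WT brains. Tumour shares were above brain shares in every library.

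Across the whole set, 6 of the 44 tested members were higher in KO tumour than in KO brain and 0 were lower. Of all 15604 tested genes, 7.08% were called in that comparison, 4.79% as higher. In WT mice 7 of 44 were higher and 0 lower, where 19.4% of all genes were called and 7.7% were higher. In all, 4 members passed in both genotypes (Psmb8, Psmb9, Psmb10 and Psmc2), and 9 passed in at least 1. The induced members had a median log2 change of 2.36 in KO mice and 1.24 in WT mice, the other tested members 0.40 in KO mice and 0.48 in WT mice, and all tested genes -0.18 in KO mice and -0.26 in WT mice. At an unadjusted p under 0.05 there were 13 members in KO mice, where 24.6% of all genes were, and 14 in WT mice, where 34.4% were. Counted without a test, 20 of 44 members had both KO tumour libraries above all KO brain libraries and 0 had them below, where 22% and 28.6% of all genes did. In WT mice 13 of 44 were above and 3 below, where 12.7% and 19.8% of all genes were. The number of members called depended on single libraries: 2 were called in KO mice without either KO tumour library, 3 without KO brain 1 or 3, and in WT mice 4 without WT tumour 1 and 11 without WT tumour 3.

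**Figure D3:**
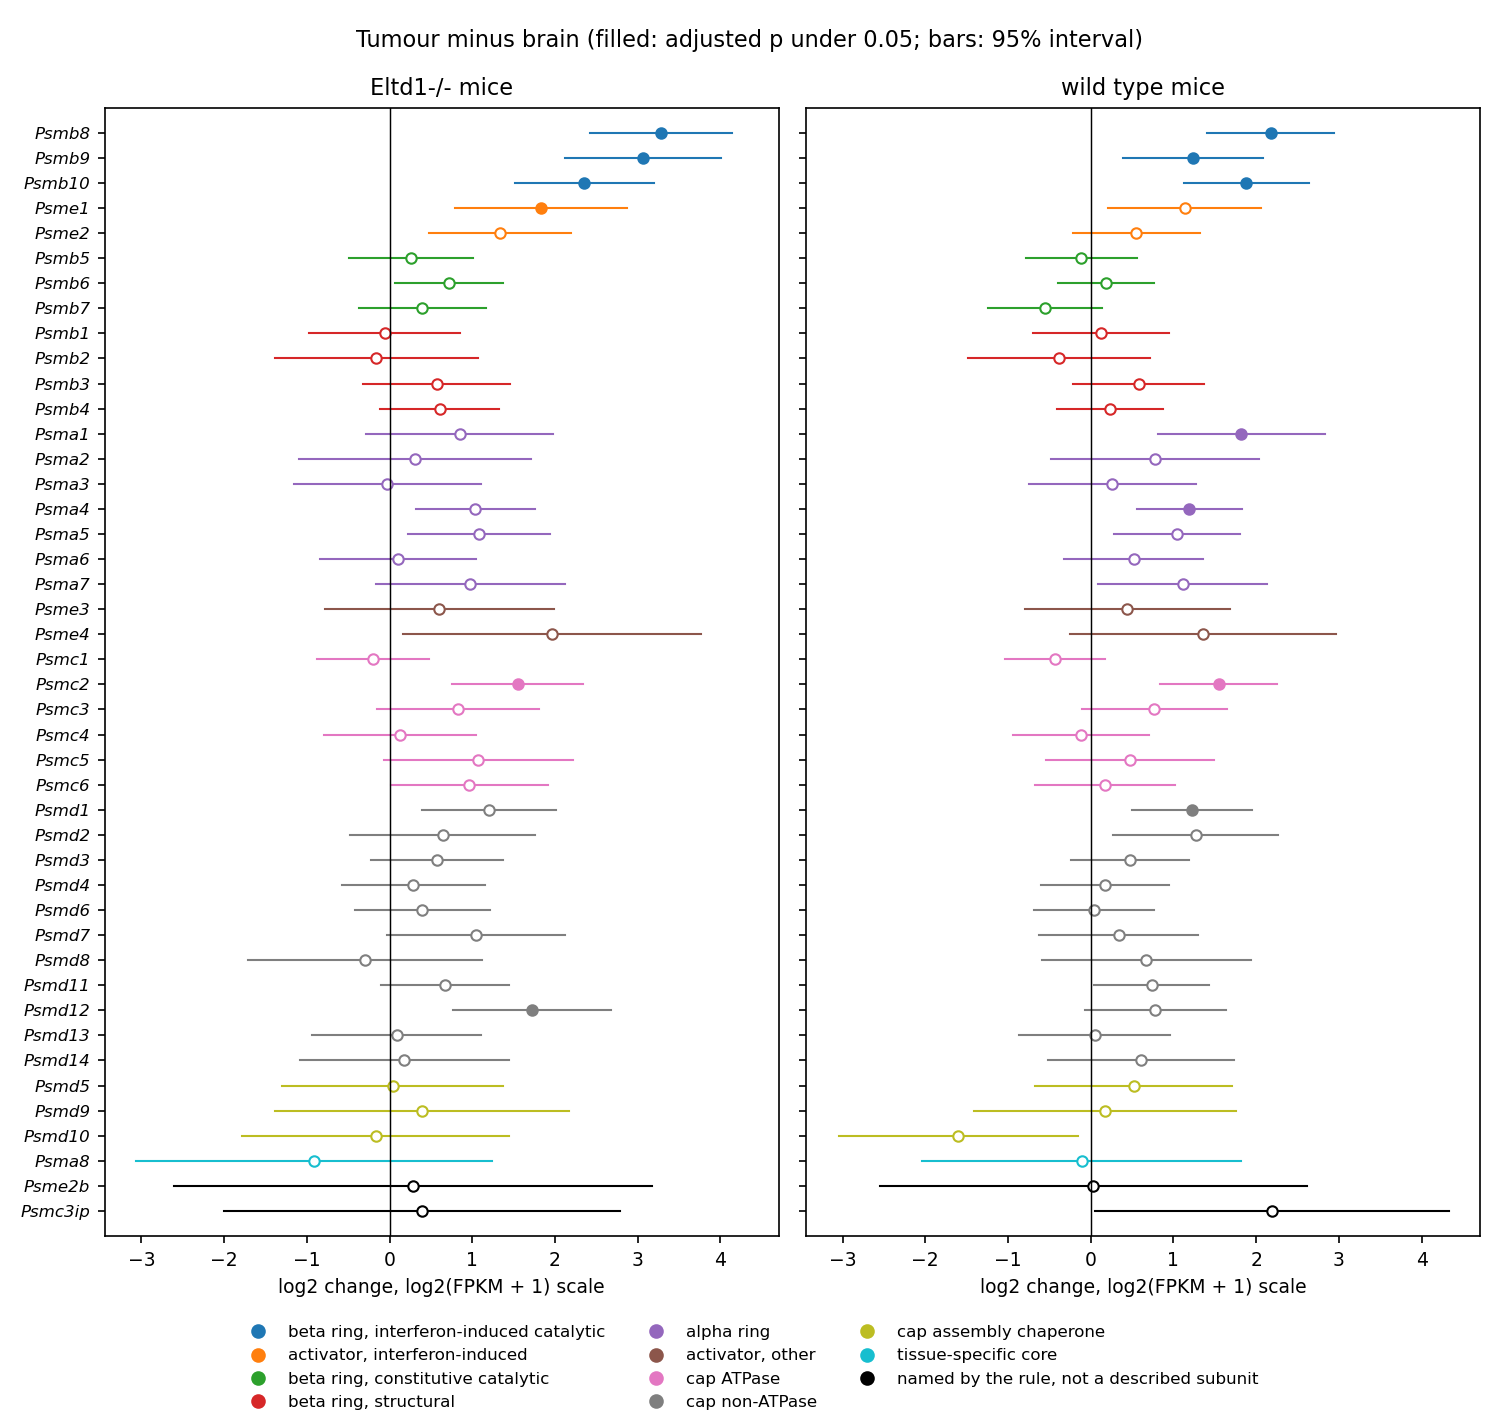
Tumour minus brain log2 change of the 44 tested members in Eltd1-/- mice (left) and wild type mice (right), on the log2(FPKM + 1) scale, ordered and coloured by role; filled points have an adjusted p under 0.05 and bars are 95% intervals. The interferon-induced catalytic members at the top reach 3.28 in Eltd1-/- mice and 2.18 in wild type mice, and no filled point lies below 0.

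None of the constitutive catalytic subunits passed the test in either genotype as fitted. Psmb5 stood at 114 and 146 FPKM in KO tumours and 137, 139 and 117 FPKM in WT tumours, against 99.03, 119.5 and 106 FPKM in KO brains and 102, 209 and 132 FPKM in WT brains. Its tumour minus brain change was 0.26 (95% interval -0.49 to 1.01, adjusted p = 0.695) in KO mice and -0.11 (-0.78 to 0.56, adjusted p = 0.83) in WT mice. Psmb6 had changes of 0.72 (SE 0.30, adjusted p = 0.161) in KO mice and 0.19 (SE 0.26, adjusted p = 0.655) in WT mice, and its KO change passed with library weights (adjusted p = 0.0323). Psmb7 was at 62.4 and 60.4 FPKM in KO tumours, against 44.4, 59.1 and 38.0 FPKM in KO brains, and at 47.5, 54.9 and 39.5 FPKM in WT tumours, against 67.3, 85.2 and 57.6 FPKM in WT brains. Its libraries did not overlap in either genotype, with tumour above brain in KO mice and below it in WT mice, and neither change passed (0.40, adjusted p = 0.533 in KO mice and -0.55, adjusted p = 0.242 in WT mice). The 4 structural beta subunits, Psmb1 to Psmb4, passed in neither genotype, with changes from -0.16 (Psmb2) to 0.61 (Psmb4) in KO mice and from -0.38 to 0.58 in WT mice.

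Among the 7 alpha ring subunits, 2 rose in WT tumour and 0 passed in KO tumour. Of all genes, 7.7% were called higher in WT tumour and 4.79% in KO tumour. Psma4 had 181 and 125 FPKM in KO tumours and 163, 249 and 151 FPKM in WT tumours, against 80.5, 73.1 and 65.1 FPKM in KO brains and 84.8, 80.4 and 73.9 FPKM in WT brains. All 5 tumour libraries were above all 6 brain libraries, and the change was 1.04 (SE 0.33, adjusted p = 0.0788) in KO mice and 1.19 (SE 0.29, adjusted p = 0.0169) in WT mice. Psma1 had 90.8, 85.9 and 63.3 FPKM in WT tumours, against 12.7, 40.5 and 19.4 FPKM in WT brains, a change of 1.82 (SE 0.46, adjusted p = 0.0195). In KO mice it had 68.9 and 74.9 FPKM in tumours, against 41.6, 61.4 and 23.9 FPKM in brains, a change of 0.85 (adjusted p = 0.341) with groups that did not overlap. The WT call for Psma1 was lost without WT tumour 1, WT brain 1 or WT brain 3, with an adjusted p of up to 0.0645. The WT calls of Psma4 and Psma1 were both lost with only the compared groups fitted and without WT tumours 2 and 3, with adjusted p up to 0.0702 and 0.0829 in that order. Psma5 had changes of 1.09 (adjusted p = 0.116) in KO mice and 1.04 (adjusted p = 0.0571) in WT mice, and Psma7 of 0.98 (adjusted p = 0.274) in KO mice and 1.11 (adjusted p = 0.115) in WT mice.

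Where 4.79% of all genes were called higher in KO tumour and 7.7% in WT tumour, 1 of the 6 cap ATPases was. These thread the substrate into the core, and Psmc2 passed in both genotypes. It stood at 86.5 and 78.5 FPKM in KO tumours and 119.8, 138 and 95.1 FPKM in WT tumours, against 19.1, 34.3 and 31.6 FPKM in KO brains and 40.8, 35.8 and 40.9 FPKM in WT brains. Tumour and brain were well apart in each genotype, with a change of 1.55 (SE 0.36, adjusted p = 0.0261) in KO mice and 1.55 (SE 0.32, adjusted p = 0.00872) in WT mice. The KO call was lost without KO tumour 1 or 2 or KO brain 1 or 3, with an adjusted p of up to 0.23. Psmc3, Psmc5 and Psmc6 had positive changes that did not pass, of 0.83, 1.08 and 0.97 in KO mice (adjusted p from 0.197 to 0.281) and 0.77, 0.48 and 0.17 in WT mice (adjusted p from 0.198 to 0.79). Psmc1 was negative in both, at -0.20 and -0.44, without passing.

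Of the 11 other cap subunits, 1 passed in each genotype, where 4.79% (KO) and 7.7% (WT) of all genes were called higher. Psmd12, a lid subunit, had 78.8 and 75.01 FPKM in KO tumours, against 30.7, 20.4 and 18.4 FPKM in KO brains, a change of 1.72 (SE 0.43, adjusted p = 0.0358). In WT mice it had 108, 108 and 49.8 FPKM in tumours, against 62.5, 44.5 and 40.0 FPKM in brains, which overlapped, and its change of 0.78 did not pass (adjusted p = 0.177). The KO call was lost in 6 of the 11 fits that left out 1 library (either KO tumour, any KO brain, or WT brain 3), with an adjusted p of up to 0.253. Psmd1, the large scaffold subunit of the base, had 97.1 and 107 FPKM in KO tumours and 122, 146 and 94.9 FPKM in WT tumours, against 51.4, 33.7 and 48.6 FPKM in KO brains and 41.6, 70.7 and 42.8 FPKM in WT brains. Tumours lay above brains throughout, and the change was 1.20 (SE 0.37, adjusted p = 0.075) in KO mice and 1.23 (SE 0.33, adjusted p = 0.0248) in WT mice. That WT call was lost without WT tumour 1 or 2 or WT brain 1 or 3, with an adjusted p of up to 0.0743, and also with only the compared groups fitted or without both WT tumours 2 and 3 (up to 0.0883). Psmd2, which receives ubiquitin-like domains of shuttle factors, had a change of 1.27 (adjusted p = 0.0722) in WT mice, and Psmd11, another lid subunit, had changes of 0.67 (adjusted p = 0.27) in KO mice and 0.74 (adjusted p = 0.125) in WT mice. Psmd7, the inactive partner of the deubiquitinase Psmd14, had a change of 1.05 (adjusted p = 0.214) in KO mice.

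The other activators and the assembly chaperones did not pass as fitted. Psme3 had changes of 0.60 (adjusted p = 0.611) in KO mice and 0.44 (adjusted p = 0.617) in WT mice. Psme4, a large activator of the nucleus, had 50.7 and 46.4 FPKM in KO tumours, against 6.76, 17.2 and 13.5 FPKM in KO brains, which did not overlap, and the change of 1.96 (SE 0.82) had an adjusted p of 0.168. It passed with only the compared groups fitted and with library weights, with an adjusted p down to 0.0209. In WT mice it had 33.2, 141 and 45.3 FPKM in tumours, against 9.32, 75.6 and 16.0 FPKM in brains, a change of 1.36 (adjusted p = 0.217) that passed only without WT brain 2 (adjusted p = 0.0476). Psmd10, a chaperone of cap assembly, was the member with the most negative change in WT mice, at 9.17, 5.06 and 1.99 FPKM in tumours, against 15.8, 24.4 and 11.0 FPKM in brains (-1.60, SE 0.66, adjusted p = 0.11). Psmc3ip had a change of 2.19 in WT mice (SE 0.98, adjusted p = 0.137), with 60.8 FPKM in WT tumour 2 and 3.59 FPKM in WT tumour 3. Psma8, an alpha subunit of testis, was listed at 0 in 4 libraries and at no more than 6.89 FPKM in the others, and Psme2b at 0 in 6 libraries and at no more than 17.3 FPKM in the others. The 22 members not among the 10 fixed names or the 12 smallest p-values had changes from -0.91 to 0.85 in KO mice, with no adjusted p below 0.341, and from -0.44 to 0.77 in WT mice, with none below 0.285.

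Between genotypes, 0 of 44 members passed in tumour (limma; 0.0192% of all genes were called) and 0 had an unadjusted p under 0.05, where 3.11% of all genes did. Psmb8 was higher in both KO tumours than in all WT tumours, with a difference of 0.74 (95% interval -0.11 to 1.60, adjusted p = 1). Psmb9 was likewise above the WT tumours in both KO tumours, by 0.56 (95% interval -0.39 to 1.501, adjusted p = 1), and Psmb7 by 0.38 (-0.39 to 1.15). These were 3 of 44 members with KO above WT and no overlap, where 10.8% of all genes were, and Psmc2 was the 1 member below without overlap (-0.49, adjusted p = 1), where 4.61% of all genes were. Psmb10 differed by -0.02 (95% interval -0.87 to 0.82), Psme1 by 0.12 (-0.91 to 1.16) and Psme2 by 0.36 (-0.50 to 1.22). Psmb5 differed by -0.02, Psmb6 by 0.12, Psme3 by 0.28 and Psme4 by -0.30. Among the other cap ATPases, Psmc4 had the largest estimate of any member (0.85, 95% interval -0.07 to 1.77, adjusted p = 1), followed by Psmc5 at 0.47, Psmc6 at 0.33 and Psmc3 at -0.35. The further cap subunits Psmd7, Psmd6 and Psmd1 stood at 0.35, 0.24 and -0.22, and the core subunits Psmb2, Psmb1, Psma4 and Psma7 at 0.67, 0.24, -0.29 and -0.31. The remaining 22 members ranged from -0.53 to 0.30.

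In brain, 0 of 44 members passed (limma; 0.00641% of all genes were called), and 2 had an unadjusted p under 0.05, where 4.35% of all genes did. Psmb9 was below all WT brains in all 3 KO brains, at the values given above, and differed by -1.26 (SE 0.39, adjusted p = 1). Psmd12 was also lower without overlap, at 30.7, 20.4 and 18.4 FPKM in KO brains, against 62.5, 44.5 and 40.0 FPKM in WT brains (-1.06, SE 0.39, adjusted p = 1). Psmd10, Psmc2 and Psmc3 were the further members below without overlap, which made 5 of 44, where 3.84% of all genes were, and 0 of 44 were above, where 4.68% were. Psmb8 differed by -0.36 (95% interval -1.12 to 0.41), Psmb10 by -0.50 (-1.26 to 0.25), Psme1 by -0.57 (-1.498 to 0.35) and Psme2 by -0.43 (-1.20 to 0.34). All 5 induced members thus had negative estimates in brain. Psmb5, Psmb6 and Psmb7 were also negative, at -0.39, -0.42 and -0.57, while Psme3 stood at 0.12 and Psme4 at -0.90. Of the cap, Psmd10 (-1.14), Psmc2 (-0.49) and Psmc6 (-0.47) had negative estimates, and Psmd8 (0.93), Psmd2 (0.62) and Psmc4 (0.61) positive ones. The core subunits Psma1, Psma6, Psma2 and Psmb1 were positive, at 0.84, 0.60, 0.59 and 0.43, as was Psmc3ip at 1.27. The remaining 22 members ranged from -0.62 to 0.46.

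**Figure D4:**
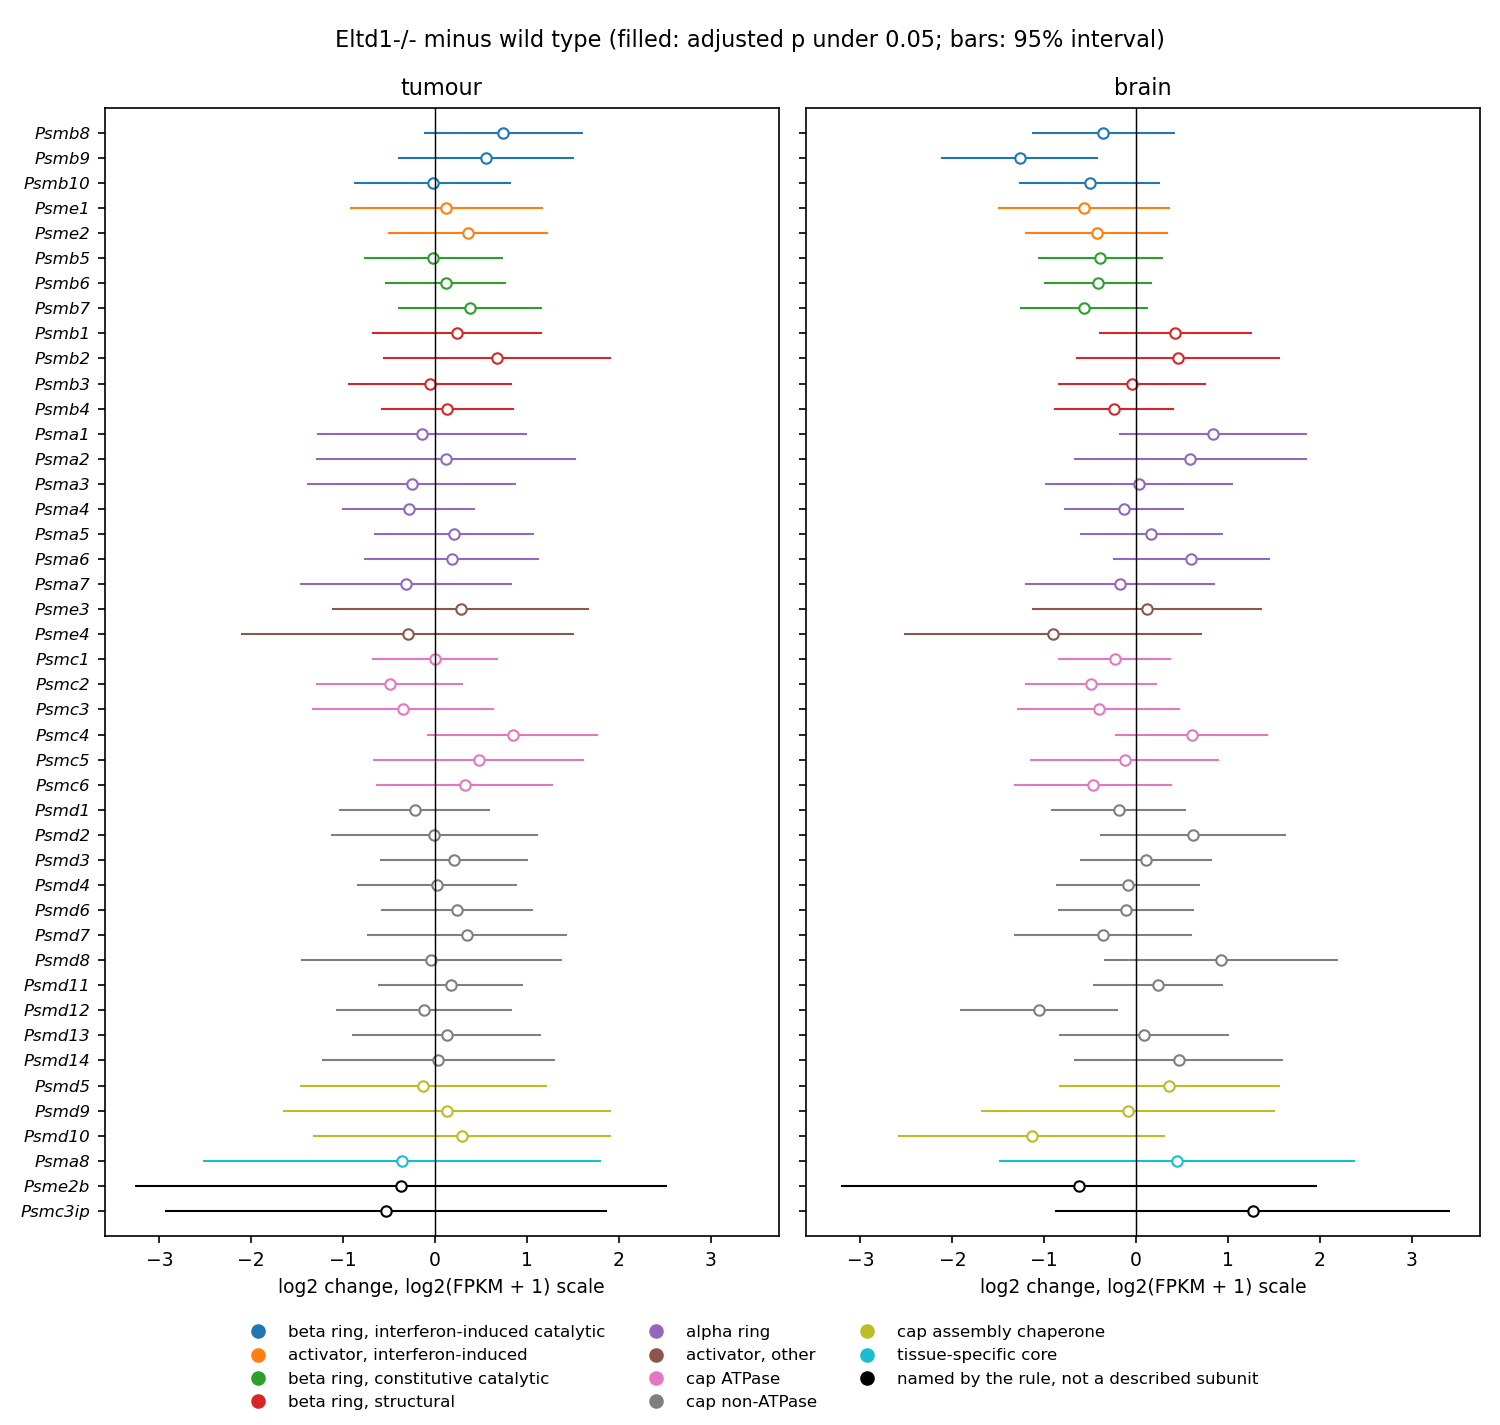
Eltd1-/- minus wild type log2 difference of the 44 tested members in tumour (left) and brain (right), on the log2(FPKM + 1) scale, by role, with 95% intervals; filled points would have an adjusted p under 0.05. No point is filled, and Psmb9 lies at 0.56 in tumour and -1.26 in brain.

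Whether the tumour minus brain change itself differed between genotypes was tested as an interaction, and 0 of 44 members passed (limma; 0.00641% of all genes were called). Psmb9 was the 1 member with an unadjusted p under 0.05, where 3.18% of all genes had one: its change was larger in KO mice by 1.82 (SE 0.58, adjusted p = 1). For Psmb8 the KO change was larger by 1.10 (95% interval -0.05 to 2.25), for Psme2 by 0.79 (-0.36 to 1.94), for Psme1 by 0.70 (-0.69 to 2.09) and for Psmb10 by 0.48 (-0.66 to 1.61). The constitutive Psmb7, Psmb6 and Psmb5 had interaction estimates of 0.95, 0.53 and 0.37, and Psme4 and Psme3 of 0.61 and 0.16. Of the cap, Psmd10 (1.43), Psmd12 (0.94), Psmc6 (0.79), Psmd7 (0.71), Psmc5 (0.60) and Psmd6 (0.35) had positive estimates, and Psmd8 (-0.97) and Psmd2 (-0.63) negative ones. Psma1 stood at -0.97, Psma6 at -0.42, Psmb4 at 0.38 and Psmc3ip at -1.80, and the remaining 22 members between -0.80 and 0.25. None of the 5 log2 pair ratios passed the test between genotypes, with mean KO minus WT differences from -0.42 to 0.40 (exact permutation tests, adjusted p from 0.45 to 0.59). This test averages both tissues, so opposite differences cancel. For Psmb9 to Psmb6 the difference was 0.44 in tumour and -0.85 in brain, and for Psmb8 to Psmb5 it was 0.76 and 0.03.

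Genes that act with the proteasome were compared in the same fits. Of 11 genes of interferon-gamma signalling, 4 rose in KO tumour and 4 in WT tumour, and 0 fell. Among all genes 4.79% were called higher in KO tumour and 7.7% in WT tumour. Of the 11 changes, 3 were negative in WT mice, down to -0.98, and 1 in KO mice (-0.31), without passing. Irf1, the factor known to bind the promoters of immunoproteasome genes, was at 495 and 422 FPKM in KO tumours and 538, 968 and 324 FPKM in WT tumours, against 64.6, 26.4 and 74.5 FPKM in KO brains and 69.2, 26.3 and 99.1 FPKM in WT brains. Every tumour library was above every brain library. Its change in WT mice was 3.26 (SE 0.55, adjusted p = 0.00314). In the same mice Nlrc5, an activator of MHC class I genes, changed by 3.47 (adjusted p = 0.00528) and Socs1, an inhibitor of the pathway, by 2.94 (adjusted p = 0.00449). Socs1 was near the floor in WT brains, at 0, 0.21 and 0 FPKM, against 5.88, 12.7 and 4.81 FPKM in WT tumours.

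The step after the proteasome, peptide loading on MHC class I, had 5 of 11 genes higher in KO tumour and 5 of 11 in WT tumour, and 0 lower. Among all genes 4.79% were called higher in KO tumour and 7.7% in WT tumour. Tap1, the neighbour of Psmb9, was at 465 and 298 FPKM in KO tumours and 199, 107 and 93.2 FPKM in WT tumours, against 2.30, 26.9 and 13.0 FPKM in KO brains and 0, 14.8 and 12.1 FPKM in WT brains. In WT mice its change was 4.42 (SE 1.00, adjusted p = 0.012), and the class I heavy chains H2-K1 and H2-D1 changed by 2.86 (adjusted p = 0.00258) and 2.07 (adjusted p = 0.00964), and Erap1, which trims peptides, by 2.09 (adjusted p = 0.013). In KO mice Tap1 changed by 5.10 (SE 1.12, adjusted p = 0.0198) and H2-K1 by 2.78 (adjusted p = 0.00931). The median change of the 11 genes was 2.04 in KO mice and 0.98 in WT mice, against -0.18 and -0.26 over all genes tested. Between KO and WT tumours 0 of the 11 passed (limma; 1 had an unadjusted p under 0.05), while all 11 estimates were positive, with a median of 0.96, against 0.16 over all genes. Both KO tumours were above all WT tumours for 8 of the 11, Tap1 among them (1.56, SE 1.12, adjusted p = 1), where 10.8% of all genes were. The interaction was called for 0 of the 11. Positive estimates between KO and WT tumours were also frequent among cell type markers. They made up 9 of 10 for endothelial cells (median 0.63), 10 of 12 for microglia and macrophages (0.56), 8 of 8 for mural cells (0.35) and 9 of 10 for neurons (1.16). For oligodendrocyte markers 3 of 8 were positive, and for proliferation genes 5 of 10. The list of 5 genes for the regulation of proteasome genes also held Sqstm1, an autophagy receptor that is induced by Nfe2l2. Only Sqstm1 rose, in each genotype, and the regulators in the list did not pass. It stood at 23802 and 5631 FPKM in KO tumours and 21015, 21776 and 18355 FPKM in WT tumours. Brains had 742, 845 and 958 FPKM in KO mice and 1122, 838 and 1050 FPKM in WT mice. Its change in WT mice was 4.35 (adjusted p = 0.000191). Nfe2l1, a factor that raises constitutive proteasome genes when proteasomes are short, had an mRNA change of -0.19 (limma adjusted p = 0.732), and Nfe2l2 of 1.10 (adjusted p = 0.191). None of the 5 core assembly factors, 10 cofactors and 5 ubiquitin genes passed in either genotype, and the closest in WT mice were Psmg4 (-0.80), Psmf1 (1.11) and Uba1 (0.70). Psmg4 was at 38.0, 92.7 and 0 FPKM in WT tumours, against 76.8, 8.56 and 24.9 FPKM in WT brains. No assembly factor had a limma adjusted p below 0.712 in WT mice.

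**Figure D5:**
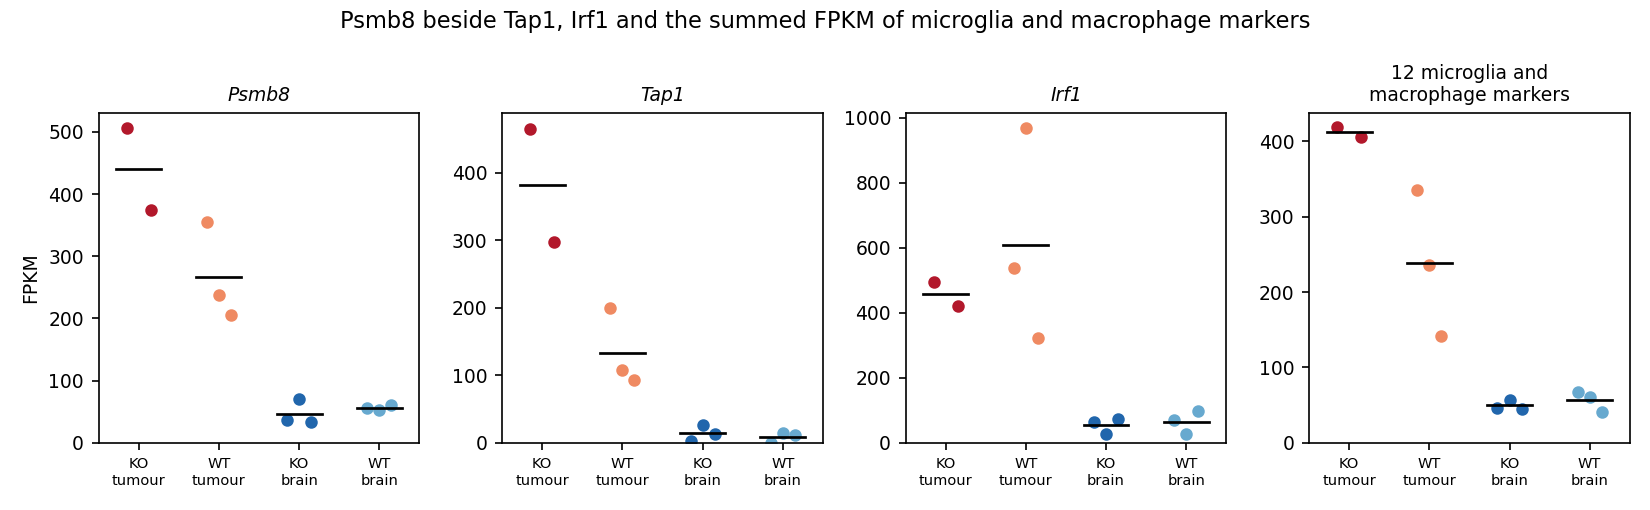
FPKM (vertical axes, linear from 0) of Psmb8, Tap1 and Irf1 and summed FPKM of 12 microglia and macrophage markers, by group; points are libraries and lines group means. All 4 panels have every tumour library above every brain library. Among the tumours Psmb8, Tap1 and the marker sum share 1 order, which no single marker of the 12 shows.

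Immune cells, microglia and macrophages among them, are known to express immunoproteasome subunits, and their markers were also higher in tumour. The 12 markers summed to 406 to 419 FPKM in KO tumours and 142 to 336 FPKM in WT tumours, against 45.4 to 57.1 FPKM in KO brains and 41.4 to 67.9 FPKM in WT brains. Of the 12, 2 were higher in KO tumour and 3 in WT tumour (Lyz2, Tmem119 and C1qa), and Aif1 and Tyrobp were at 0 in all WT brains. Among all genes 4.79% were called higher in KO tumour and 7.7% in WT tumour. Across the 5 tumour libraries Psmb8 and the sum of these 12 markers gave the same order, which the other induced members did not. No single marker of the 12 gave that order. Tap1, Tap2, Tapbp and H2-D1 of peptide loading gave it too, as did the sum of 8 mural cell markers and Cspg4 among them. The mural sum was 78.9 and 74.9 FPKM in KO tumours and 61.6, 36.1 and 24.4 FPKM in WT tumours. It was 19.6 to 37.1 FPKM in KO brains and 23.1 to 32.9 FPKM in WT brains. Of the 8 mural markers, 1 was called higher in each genotype, against the shares of all genes given above, and 0 were lower. The changes of 3 in KO mice and 2 in WT mice were negative. Cspg4 alone was at 56.9 and 44.9 FPKM in KO tumours and 32.3, 27.4 and 9.79 FPKM in WT tumours. How many of all genes share the order of Psmb8 was not counted. Of 11 lymphocyte markers, 4 could be tested and 1, Lck, was higher in each genotype, and 0 were lower. In KO mice 2 of the 4 changes were positive and 2 negative, down to -2.51. In WT mice 3 were positive and 0 negative. Cd4 did not pass, at 2.80 and 1.40 FPKM in KO tumours, against 20.6, 11.999 and 17.1 FPKM in KO brains. Its WT groups overlapped, at 13.7, 9.10 and 4.81 FPKM in tumours, against 26.8, 4.68 and 2.12 FPKM in brains. Cd3e was at 0 in every library. The 11 lymphocyte markers summed to 17.9 to 28.5 FPKM in KO tumours and 27.7 to 48.3 FPKM in WT tumours, against 11.999 to 22.6 FPKM in KO brains and 4.10 to 27.0 FPKM in WT brains. The 10 proliferation genes summed to 1039 to 1303 FPKM in KO tumours and 729 to 1381 FPKM in WT tumours, against 35.9 to 66.2 FPKM in KO brains and 15.9 to 51.5 FPKM in WT brains. Glioma and neural progenitor markers were higher in part. Of the 7, 4 were higher in KO tumour and 0 lower, and 4 were higher in WT tumour and 2 lower (Prom1 and Cspg5), with median changes of 2.90 and 2.92. Olig2, a factor of oligodendrocyte progenitors and gliomas, was at 69.5 and 62.4 FPKM in KO tumours and 110, 79.5 and 55.9 FPKM in WT tumours, against 1.46, 4.57 and 6.96 FPKM in KO brains and 3.42, 7.82 and 5.34 FPKM in WT brains. Every tumour library was above every brain library for Olig2, as for Sox10, Sox2 and Cd44. The sum of the 7 overlapped between tissues, at 315 to 425 FPKM in KO tumours and 283 to 442 FPKM in WT tumours, against 221 to 358 FPKM in KO brains and 221 to 454 FPKM in WT brains. The part of these cell types and of the lower endothelial sums in the changes of the members was not tested.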

How the data were processed

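The authors deposited FPKM values, per the file headers, as 46073 entries in every library. The submitters' processing notes name TopHat2 2.1.1, Cufflinks 2.2.1 and GRCm38. What each did, the annotation and the use of strand: not given in the sources used here. FPKM holds no read count: at most 2.11% of low genes lay on the commonest ratio between libraries, so depth is unknown and counting intervals are not given. Entries of 207 repeated symbols (470 in all, no member among them) were summed.

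With limma 3.58.1 (R 4.3.3), means of the 4 groups were fitted to log2(FPKM + 1) of 15604 genes with at least 1 FPKM in at least 2 libraries, with a variance trend, over all 11 libraries; the script was tested on simulated data. Tests were two-sided, with Benjamini-Hochberg adjustment over all genes in each contrast and a threshold of 0.05. Log2 changes understate those of low genes. A zero can be a failed estimate. Pair ratios were compared by exact permutation of libraries within strata.

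Named were the 5 induced members, Psmb5, Psmb6, Psmb7, Psme3, Psme4, the 12 others with the smallest p per contrast, and up to 4 genes of each further list. More list genes are named where an order or a direction is described. Values of 1 further list gene are not reported here. Members and lists were chosen with earlier results of these data known. Alternatives were other pseudocounts, filters, scalings, library weights, fits to the compared groups and leaving out each library. Replicate numbers only name samples.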

Additional observations from a re-analysis of the deposited data

Results flagged for a closer look

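Psmb7 had tumour minus brain estimates of opposite direction in the 2 genotypes: every KO tumour library was above every KO brain library, and every WT tumour library was below every WT brain library. The tumour minus brain change was larger in KO mice by 0.95 on the log2(FPKM + 1) scale (SE 0.47, limma adjusted p = 1), so the difference did not pass the test. Psmb9 differed between genotypes in opposite directions in the 2 tissues, with both KO tumours above all WT tumours and all KO brains below all WT brains. The difference of these differences was 1.82 (SE 0.58, limma adjusted p = 1) and did not pass either.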

How the results depend on the processing

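No called change reversed direction under any alternative, and Psmb8 kept its call in both genotypes under all of them. In WT mice 11 members passed tumour minus brain with upper quartile scaling, 3 when only the compared groups were fitted, and 3 with WT tumour 2 and 3 both left out, an alternative chosen after seeing the data, against 7 as reported. In KO mice 10 passed when only the compared groups were fitted, 14 with library weights and 10 without WT tumour 2 and 3, against 6. Leaving out single libraries gave 4 to 11 in WT mice and 2 to 9 in KO mice. The cause was not tested. The genotype and interaction counts stayed at 0 in all settings run.

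Leaving out single libraries gave a tumour minus brain log2 ratio of 2.46 to 2.85 for Psmb8 to Psmb5, 1.55 to 1.86 for Psmb9 to Psmb6 and 2.05 to 2.39 for Psmb10 to Psmb7. Each pair lost its call in 9 of these 11 permutation tests, and the adjusted p reached 0.0833, 0.111 and 0.0833. Fewer libraries allow fewer arrangements and so a larger smallest p, and the adjustment also depends on the other ratios. Of all genes called between WT tumour and WT brain, 39.7% were higher in tumour as reported, 51.8% with upper quartile scaling and 52.2% with quantile normalization, and the median change of all genes moved from -0.26 to -0.10 and 0.01. The median of the induced members was then 1.46 and 1.39, against 1.24. No paired analysis was possible because the replicate numbers follow the order of the samples and pair none.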
